A study of Arabidopsis thaliana with 3 samples.

Results

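The mitochondrial loci of Arabidopsis thaliana were taken as all rows whose interval lies on the mitochondrial chromosome, which gave 152 of the 33857 identifiers in each library. They lie at 137 positions, since 29 identifiers share an interval with another. The libraries came from leaf, silique (the fruit with its seeds) and inflorescence (the flowering shoot tip) of wild-type Col-0, the Columbia laboratory accession, with 1 library per organ and strand kept in sequencing. The plants were 5.5 weeks old, grown in 16 hours of light, and all had been shot at 3 weeks with bare gold particles of 0.6 µm, with no plasmid, 18 days before collection. All organs shared this treatment. As each organ is a single library, differences between organs carry no error or p-value and cannot be set against a spread between plants. Whole organs were ground, so fewer cells rich in mitochondria and less mitochondrial RNA per cell cannot be told apart.

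The mitochondrial genome of a plant encodes core subunits of the respiratory chain and of ATP synthase, proteins of cytochrome c maturation, part of the mitochondrial ribosome, and ribosomal and transfer RNAs. Its transcripts are often made as joined precursors that are cut, spliced and edited from C to U. Unlike nuclear messengers, they are mostly found without a stable poly(A) tail, and a tail added to them marks them for decay. Whether poly(A) RNA was selected here is not given in the sources used here. The Columbia nuclear genome also carries a long insertion of mitochondrial DNA near the centromere of chromosome 2, so some mitochondrial sequences have a near-identical nuclear copy.

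Values are FPKM as the authors deposited them, a fragment count scaled to transcript length and to library size. The files pair the identifiers with positions on the TAIR10 build but with no gene names, strand or exons. Positions are printed counted from 1. A locus interval can hold several genes, and the transcript length behind its FPKM is not given. A locus counted as detected at 1 FPKM or more. Fragment numbers are unknown, and a value of 0 is described as listed at 0, since it can be a failed estimate.

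Names were looked for by length and spacing, because the reference gene table is of another mitochondrial assembly, that of TAIR10.1. A position was named only where its width equalled that of exactly 1 reference gene and its distance to a second such position was also equal. Only reference genes of the mitochondrial genome were searched, and this named 6 of the 137 positions. They are cob (apocytochrome b of respiratory complex III, 60235 to 61416), atp1 (the alpha subunit of ATP synthase, 302166 to 303689), rpl5 and rps7 (ribosomal proteins, 57774 to 58331 and 314627 to 315073), and ccmC and ccmFN2 (cytochrome c maturation, 239988 to 240758 and 256865 to 257476). All other loci are given by identifier and position, without a gene or role.

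The 6 named genes were at or near 0 in every organ. Naming took an exact match of width, so a gene inside a wider interval was left without a name. The 6 are therefore no sample of the mitochondrial genes. Of all 152 identifiers, 77 were listed at 0 in all organs, with a median width of 366 bp. Those that reached 5 FPKM in any organ had a median width of 3089.5 bp. Whether the naming rule favoured loci listed at 0 was not tested. The loci of cob, atp1, rpl5, rps7 and ccmC were listed at 0 in leaf, silique and inflorescence alike. The ccmFN2 locus was at 0.279 FPKM in leaf, 0.255 in silique and 0.0554 in inflorescence, under the detection floor in each. Since cob and atp1 encode subunits that every respiring plant cell uses, a listed 0 is not read here as absence of the RNA. The nuclear-encoded gamma subunit of the same ATP synthase, ATP3, was at 161 FPKM in leaf, 181 in silique and 169.8 in inflorescence.

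Most mitochondrial loci had no or little signal. Of the 152 identifiers, 77 were listed at 0 in all 3 organs, 37 stayed above 0 but under 1 FPKM, 24 reached between 1 and 5 FPKM in their highest organ, and 14 reached 5 FPKM or more. In leaf 38 were detected (25.0%), in silique 16 (10.5%) and in inflorescence 14 (9.21%). The same floor was reached by 54.7%, 61.4% and 62.1% of nuclear loci in leaf, silique and inflorescence, and by 29.7%, 39.8% and 22.0% of the 118 chloroplast loci. Leaf thus had the most detected loci among mitochondrial loci and the fewest among nuclear loci. All 38 loci detected in any organ were detected in leaf. Of these, 13 were detected in all 3 organs, 3 in leaf and silique, 1 in leaf and inflorescence, and 21 in leaf alone. Over all loci, 23036 were detected in any organ and 18451 in leaf, and of chloroplast loci 51 and 35. The split between organs was not counted over all loci, so the 21 have no background, and most peaks lay near the floor.

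**Figure D1:**
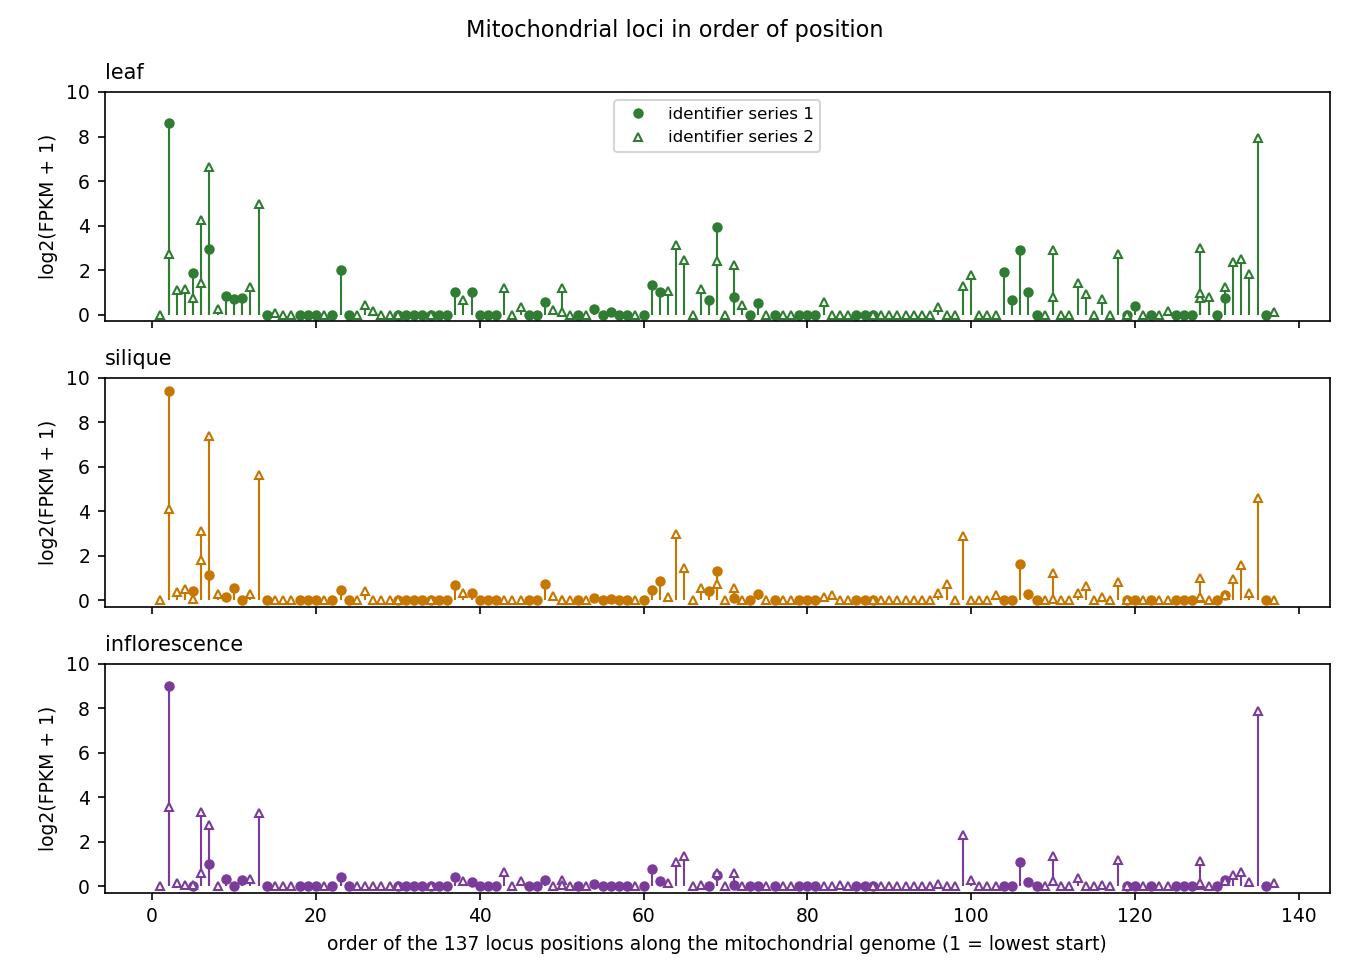
FPKM on the log2(FPKM + 1) scale of each mitochondrial identifier in leaf, silique and inflorescence, against the order of the positions along the mitochondrial genome. Filled circles and open triangles mark the 2 ascending series of identifiers. The values above 20 FPKM sit among the first 13 positions and near the end; the middle stretch has 24 detected identifiers in leaf, up to 14.2 FPKM.

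Summed over all mitochondrial loci, the level was similar in the 3 organs, at 904 FPKM in leaf, 988 in silique and 796 in inflorescence. As a share of the library's summed FPKM this was 0.0709% in leaf, 0.0926% in silique and 0.0881% in inflorescence. Inflorescence was thus lowest by sum and leaf lowest by share. The sum came from very few loci. The 2 highest loci of each organ held 69.6% of it in leaf, 86.2% in silique and 93.0% in inflorescence. Without the 2 loci of highest FPKM over all organs, XLOC_033706 and XLOC_033856, the sum was 275 FPKM in leaf, 281 in silique and 55.9 in inflorescence. Without the 4 highest it was 147 FPKM in leaf, 64.3 in silique and 41.2 in inflorescence. The second highest locus was XLOC_033856 in leaf and inflorescence and XLOC_033776 in silique.

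**Figure D2:**
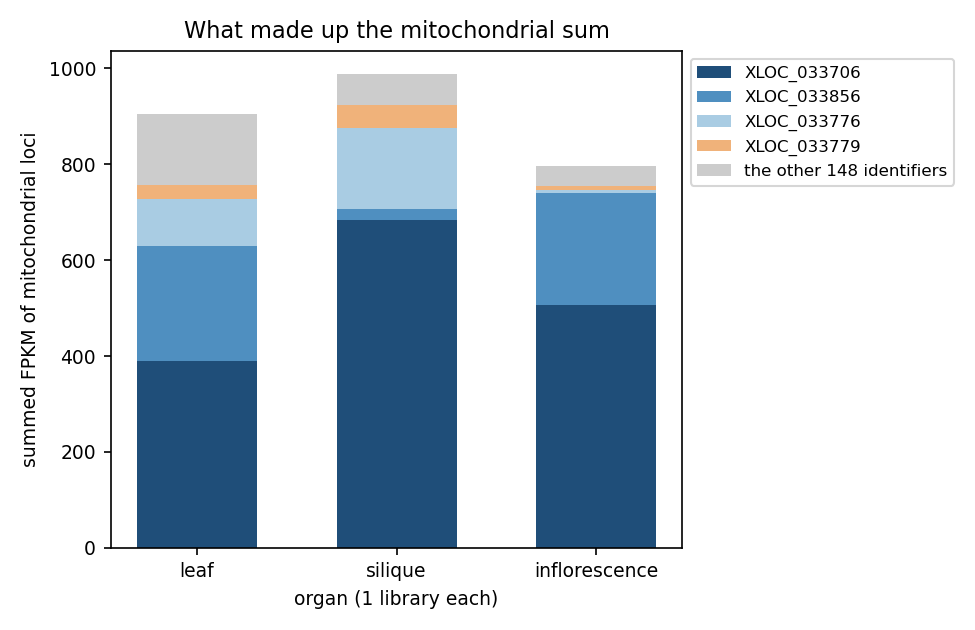
Summed FPKM of the mitochondrial loci in each organ (1 library each), split into the 4 identifiers of highest FPKM and the other 148. XLOC_033706 is the largest block in all 3 organs, the block of XLOC_033856 is thin in silique, and that of XLOC_033776 is thin in inflorescence.

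The highest mitochondrial locus, XLOC_033706 (8848 to 12241), was at 389 FPKM in leaf, 683 in silique and 507 in inflorescence. It was highest in silique, by a log2 ratio of -0.81 for leaf over silique and 0.43 for silique over inflorescence. Ratios are on the log2(FPKM + 1) scale throughout, which understates the ratio of low loci. The same interval holds a second identifier, XLOC_033770, at 5.52 FPKM in leaf, 16.1 in silique and 10.8 in inflorescence. Both identifiers of the interval had the order silique, inflorescence, leaf.

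XLOC_033856 (359232 to 363396) was at 240 FPKM in leaf, 23.5 in silique and 233 in inflorescence. Leaf and inflorescence were close, and silique stood apart, at a log2 ratio of 3.30 for leaf over silique and -3.25 for silique over inflorescence. Among the 14 loci of at least 5 FPKM, no other was lower in silique than in both other organs by 4-fold.

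Inflorescence stood apart at XLOC_033776 and, less so, at XLOC_033779. XLOC_033776 (22665 to 31083), on the widest mitochondrial interval at 8419 bp, was at 97.8 FPKM in leaf, 168 in silique and 5.80 in inflorescence. Its log2 ratio was 3.86 for leaf over inflorescence and 4.64 for silique over inflorescence. XLOC_033779 (39801 to 42751) was at 30.1 FPKM in leaf, 48.5 in silique and 8.89 in inflorescence. There the log2 ratio was 2.32 for silique over inflorescence and 1.65, short of 4-fold, for leaf over inflorescence. Both were highest in silique and lowest in inflorescence. Of the 6 other identifiers between 22665 and 42751, only XLOC_033777 had this order, with all its values under the floor, and XLOC_033708, the highest of them, was highest in leaf. Elsewhere, XLOC_033802 (188084 to 189231) was also low in inflorescence, at 7.62 FPKM in leaf, 7.002 in silique and 1.15 in inflorescence. Its log2 ratio of 2.004 for leaf over inflorescence lay at the 4-fold limit and was 1.86 when the libraries were scaled by the median ratio of nuclear loci.

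A larger number of loci were highest in leaf. XLOC_033744 (203344 to 204310) was at 14.2 FPKM in leaf, 1.49 in silique and 0.416 in inflorescence, a log2 ratio of 2.61 over silique and 3.42 over inflorescence. A second identifier of that interval, XLOC_033806, was at 4.24 FPKM in leaf, 0.666 in silique and 0.517 in inflorescence. XLOC_033850, the highest of 3 identifiers at 327890 to 333105, was at 6.90 FPKM in leaf, 1.02 in silique and 1.21 in inflorescence. Both lower identifiers of that interval also had their highest value in leaf, at 0.967 and 0.699 FPKM. XLOC_033708, at the interval of XLOC_033776, was at 6.66 FPKM in leaf, 1.23 in silique and 1.02 in inflorescence, so that the pair of identifiers at 22665 to 31083 had different orders of the organs. XLOC_033834 (286489 to 289716) was at 6.51 FPKM in leaf, 1.38 in silique and 1.57 in inflorescence. XLOC_033757 (278649 to 279152) was at 6.501 FPKM in leaf, 2.06 in silique and 1.12 in inflorescence. XLOC_033843 (305221 to 305562), the narrowest locus of this level at 342 bp, was at 5.62 FPKM in leaf, 0.792 in silique and 1.24 in inflorescence. In these 3 loci leaf was above both other organs by less than 4-fold on the log2(FPKM + 1) scale.

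XLOC_033775 (20571 to 22086) was at 18.0 FPKM in leaf, 7.68 in silique and 8.95 in inflorescence. With XLOC_033706 and XLOC_033770 it was among the 3 loci of at least 5 FPKM in every organ with the smallest span between organs. XLOC_033828 (260647 to 261461) went against the leaf pattern, at 1.41 FPKM in leaf, 6.43 in silique and 3.85 in inflorescence. Its log2 ratio was -1.62 for leaf over silique, short of 4-fold.

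**Figure D3:**
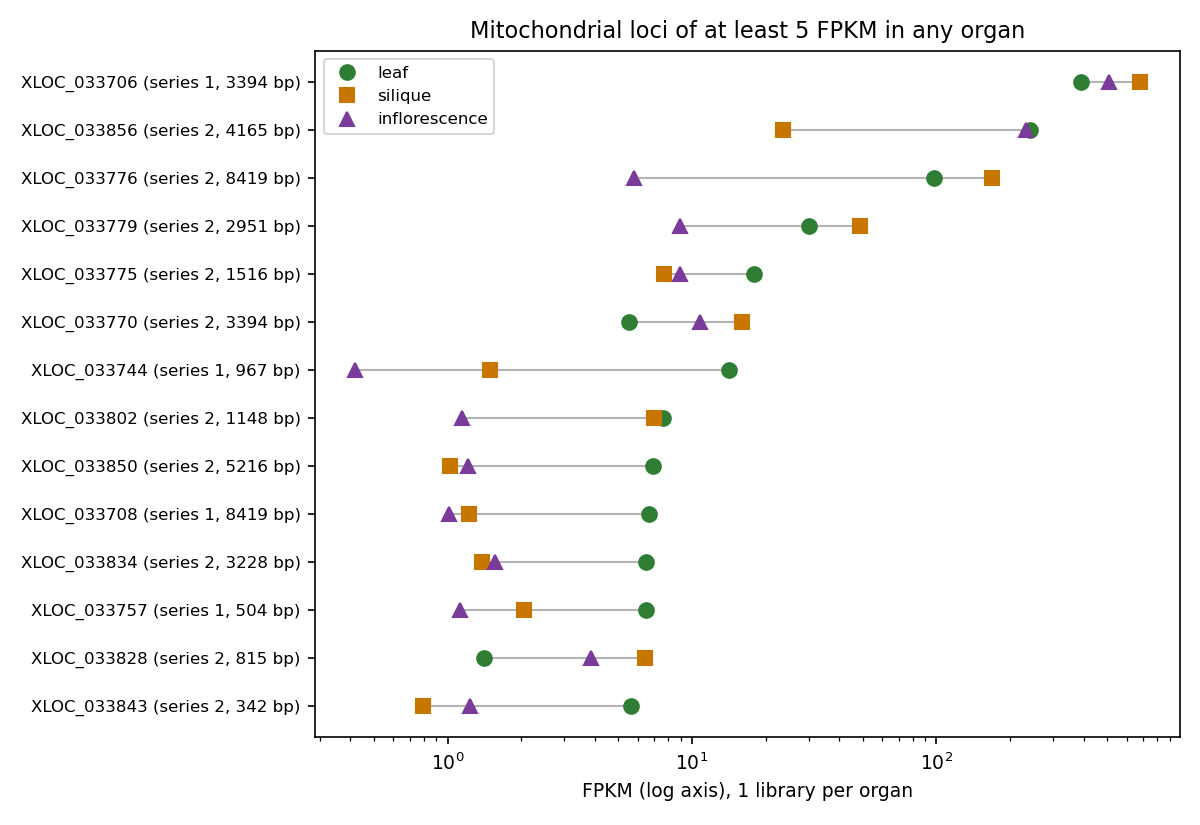
FPKM on a log axis of the 14 mitochondrial identifiers that reached 5 FPKM in any organ, with 1 point per organ. XLOC_033856 has its silique point, at 23.5, far left of the others, XLOC_033776 has its inflorescence point, at 5.80, far left, and the lower identifiers mostly have leaf at the right.

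By a rule of 4-fold or more on the log2(FPKM + 1) scale, applied where the higher organ reached 5 FPKM, few mitochondrial loci differed. Between leaf and silique, 2 loci were higher in leaf, XLOC_033744 and XLOC_033856, and none in silique, out of 14 that reached the minimum. Over all loci of the libraries 5.94% of those reaching the minimum were higher in leaf and 12.2% in silique. Between leaf and inflorescence, 3 of 13 were higher in leaf, XLOC_033744, XLOC_033776 and XLOC_033802, and none in inflorescence, against 8.11% and 12.1% over all loci. Between silique and inflorescence, 2 of 8 were higher in silique, XLOC_033776 and XLOC_033779, and 1 in inflorescence, XLOC_033856, against 7.26% and 5.52% over all loci. With so few loci at the minimum, these counts are small for a reading against the background.

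A wider rule took 2-fold or more where the higher organ reached 1 FPKM, and by it the share higher in leaf lay above the background in both leaf pairs. Between leaf and silique, 20 of 38 loci that reached this minimum were higher in leaf (52.6%) and 2 in silique, against 16.6% and 23.7% over all loci. Between leaf and inflorescence, 23 of 38 were higher in leaf (60.5%) and 1 in inflorescence, against 17.3% and 23.9%. Between silique and inflorescence, 4 of 17 were higher in silique (23.5%) and 1 in inflorescence, against 14.5% and 12.5%. The 38 loci all reached the minimum in leaf, many through leaf alone, so these shares describe the values and are no support for a difference. Of the 24 loci that peaked between 1 and 5 FPKM, 23 were highest in leaf. Their medians were 1.56 FPKM in leaf, 0.317 in silique and 0.235 in inflorescence, so the values in silique and inflorescence were mostly under the floor. The 24 were chosen by their highest value, and all of them reached 1 FPKM in leaf. No such count was made over all loci, so the 23 have no background and are no support for a difference either.

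Counted over all 152 identifiers, with no floor, the direction was the same. Leaf was above silique at 62 and below it at 12, and 78 were listed at 0 in both. Leaf was above inflorescence at 67 and below it at 5, and 80 were listed at 0 in both. Silique was above inflorescence at 47 and below it at 20. Over all 33857 loci the balance of both leaf pairs lay the other way, with leaf above silique at 11570 and below it at 14470, and leaf above inflorescence at 11778 and below it at 14975. Silique was above inflorescence at 13629 of all loci and below it at 13518, near an even balance. The median log2 ratio over the 152 identifiers was 0 in each pair, as it was over all loci, since 78 to 85 of the mitochondrial identifiers were at 0 in both organs of a pair.

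Chloroplast loci did not share the leaf excess over silique. Of 118 chloroplast identifiers, leaf was above silique at 17 and below it at 42. Between leaf and inflorescence they lay the same way as mitochondrial loci, with leaf above at 46 and below at 9.

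**Figure D4:**
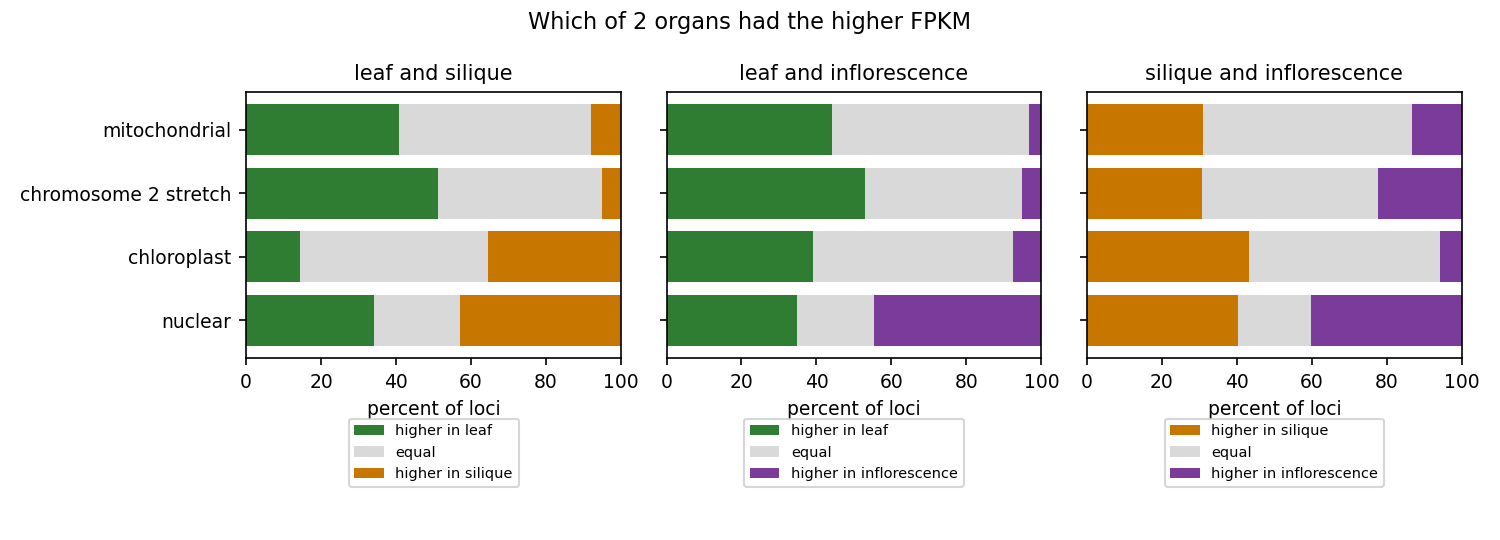
Percent of loci with the higher FPKM in the first organ (left segment), in neither (grey) or in the second organ (right segment), for each pair of organs and for mitochondrial, chromosome 2 stretch, chloroplast and nuclear loci. Mitochondrial and chromosome 2 stretch loci lean to leaf in both leaf pairs, while nuclear loci lean to silique and to inflorescence.

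The same direction was present in a stretch of chromosome 2 that holds intervals matched to mitochondrial loci. Searching every other chromosome for intervals of equal width at equal spacing found matches to 13 mitochondrial positions, all on chromosome 2, between 3250757 and 3507323, and none on chromosomes 1, 3, 4 and 5 or on the chloroplast genome. All 14 matched intervals on chromosome 2 were listed at 0 in all organs. Of the 13 mitochondrial identifiers with such a match, 11 were listed at 0 in all organs (84.6%), against 66 of the 139 without one (47.5%). The matched identifiers were narrow, so these shares are not of like loci. Under 200 bp all 3 with a match and all 15 without one were listed at 0. From 200 to under 500 bp it was 8 of 9 with a match and 30 of 48 without one. The exceptions were XLOC_033758 (279463 to 280251), at 1.04 FPKM in leaf, 0.204 in silique and 0.140 in inflorescence, and XLOC_033832 (272944 to 273423), at 0.188 FPKM in silique and listed at 0 elsewhere. Only intervals with preserved width and spacing were found this way, so the 139 may include loci with a nuclear copy, and the matched intervals on chromosome 2 were 75 to 789 bp wide. How the authors treated reads that fit both places is not given in the sources used here, and its part in these zeros was not tested.

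Over the 117 identifiers in that stretch of chromosome 2, leaf was above silique at 60 and below it at 6, and above inflorescence at 62 and below it at 6. Their sum was 92.1 FPKM in leaf, 30.4 in silique and 19.0 in inflorescence. Only 24 of the 117 were detected in leaf, 6 in silique and 6 in inflorescence, so most of these values were under the floor. The stretch thus had the leaf direction of the low mitochondrial loci. No other nuclear stretch was compared. Whether reads from one source were counted at both was not tested.

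Most of the summed FPKM came from both ends of the mitochondrial genome as numbered in leaf and inflorescence, and from its start alone in silique. A few very high loci made up most of it. In windows of 50 kb, the first, with 18 identifiers, held 61.7% of the mitochondrial sum in leaf, 94.1% in silique and 68.4% in inflorescence. The last, from 350001 to the end, with 5 identifiers, held 27.4% in leaf, 2.61% in silique and 29.4% in inflorescence, nearly all of it from XLOC_033856. Between 50001 and 350000, the 129 remaining identifiers summed to 98.4 FPKM in leaf, 32.4 in silique and 18.3 in inflorescence. This middle stretch had 24 detected identifiers in leaf, 7 in silique and 7 in inflorescence, and its highest value was the 14.2 FPKM of XLOC_033744 in leaf. Of the 14 loci that reached 5 FPKM, 6 started in the first window, 7 in the middle stretch and 1 in the last, so high loci were not confined to the ends.

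The 34 positions detected in at least 1 organ fell into 20 runs, of which 14 were single positions. The longest run of neighbouring detected positions was 6 positions with 10 identifiers, from 8848 to 31083, followed by 5 positions from 346757 to 363396. The longest run listed at 0 in all organs was 11 positions from 234538 to 254571, which includes ccmC. Another ran over 9 positions from 82028 to 106879, and one over 7 positions from 53736 to 71526 includes both cob and rpl5.

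The identifiers run along the genome in 2 ascending series, of 63 and 89, and 10 intervals have an identifier in each. The files give no strand, so the series are not called strands. The series differed in which loci were high. In the first, XLOC_033706 made up 389 of 437 FPKM in leaf, 683 of 693 in silique and 507 of 513 in inflorescence. The second series held 10 of the 14 loci that reached 5 FPKM and 27 of the 38 detected identifiers, and the first held the other 4 and 11. At 4 of the 10 intervals both series were listed at 0. At 8848 to 12241 the first series was far above the second in all organs, and at 22665 to 31083 the second was above the first, least so in inflorescence. At 16844 to 17791 the first series was at 2.64 FPKM in leaf, 0.322 in silique and listed at 0 in inflorescence, and the second at 0.675, 0.0361 and 0.0274. At 204427 to 205729 the second was higher, at 3.67 FPKM in leaf, 0.483 in silique and 0.486 in inflorescence. In both intervals leaf had the highest value in each series.

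Wider loci more often had a value. The mitochondrial intervals ranged from 22 to 8419 bp with a median of 502 bp, against a median of 2092 bp for nuclear loci. All 18 identifiers under 200 bp, a range that takes in transfer RNA genes, were listed at 0 in all organs. The narrowest were XLOC_033804 at 22 bp, XLOC_033724 at 62 bp and XLOC_033824 at 67 bp. Of the nuclear identifiers under 200 bp, 91.7% were listed at 0 in all organs, and of the chloroplast ones 78.3%. From 200 to under 500 bp, 38 of 57 mitochondrial identifiers were at 0 in all organs. Above that, the number was 18 of 41 up to 1000 bp, 3 of 16 up to 2000 bp and none of 20 from 2000 bp. The nuclear share at 0 in all organs also fell, from 42.2% at 200 to under 500 bp to 11.1% from 2000 bp. The chloroplast share was 35.3% and 21.7% in these classes, but 42.9% from 1000 to under 2000 bp. The narrowest mitochondrial identifier with any value had 321 bp.

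Across all 152 identifiers, Spearman's rho of FPKM with width was 0.58 in leaf, 0.56 in silique and 0.56 in inflorescence. Among those above 0 it was 0.17 in leaf (71 identifiers), 0.015 in silique (60) and 0.13 in inflorescence (54). The correlation was thus smaller once loci listed at 0 were left out. The loci that reached 5 FPKM were wide all the same, with a median width of 3089.5 bp, against 981 bp for those that reached 1 FPKM and 948 bp for those above 0. These medians count identifiers, so in the first the intervals at 8848 to 12241 and 22665 to 31083 each entered for 2 identifiers. The highest leaf value was 5.62 FPKM from 200 to under 500 bp, 14.2 up to 1000 bp, 18.0 up to 2000 bp and 389 from 2000 bp. Loci of one library share its depth and are not replicates, so rho is a description only. Among nuclear loci rho was 0.36 in leaf, 0.29 in silique and 0.30 in inflorescence, and among chloroplast loci 0.36, 0.40 and 0.45. A wide interval did not ensure a level: XLOC_033737 (161693 to 169674, 7982 bp) was at 0.071 FPKM in leaf, 0.0423 in silique and listed at 0 in inflorescence.

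**Figure D5:**
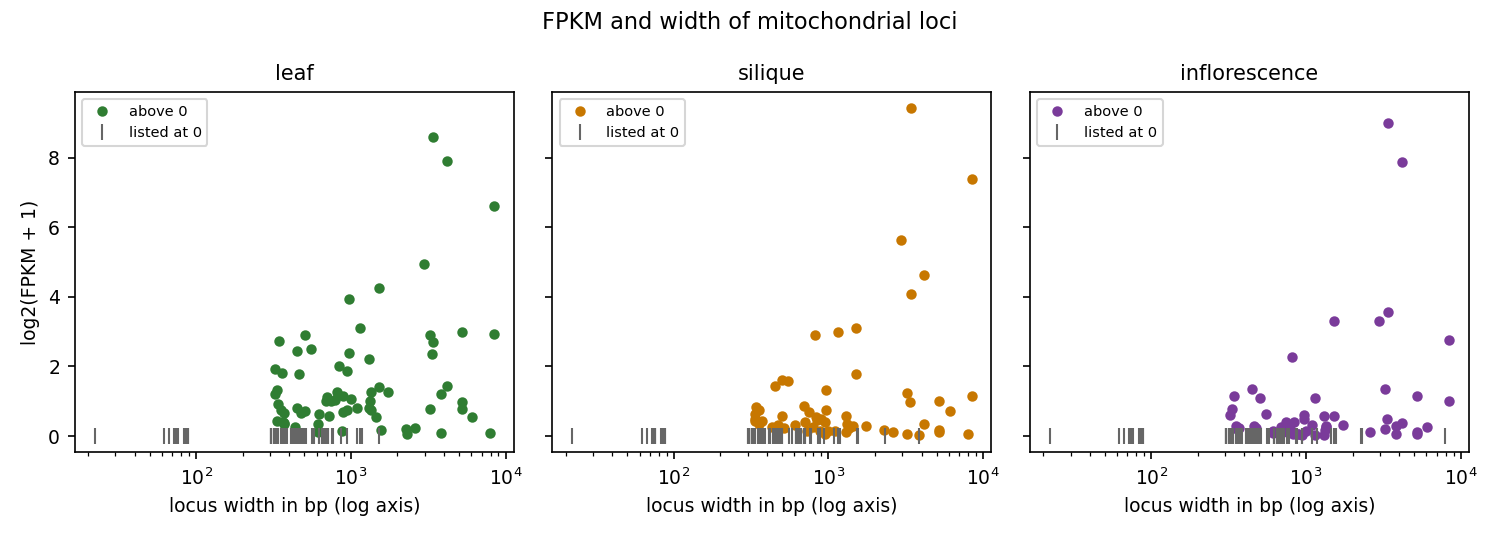
FPKM on the log2(FPKM + 1) scale against locus width in bp (log axis) for the 152 mitochondrial identifiers in each organ; grey ticks are identifiers listed at 0. No identifier under 321 bp has a value, and above that width levels spread from near 0 to the highest.

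Nuclear genes for mitochondrial proteins were set beside the mitochondrial loci, without a test between them. Of 52 listed genes, 35 could be placed at a locus of their own, and 28 of these reached 5 FPKM in leaf or silique and 27 in leaf or inflorescence. None was 4-fold higher in leaf by the rule above, where the background was 5.94% over silique and 8.11% over inflorescence. With no floor, leaf was above silique at 10 of the 35 and below it at 25, and above inflorescence at 11 and below it at 24. Over all loci leaf was above silique at 34.2% and above inflorescence at 34.8%, with 7817 and 7104 loci listed at 0 in both. The list thus lay the same way as all loci. The 12 placed genes of the respiratory complexes had a median of 60.5 FPKM in leaf, 83.4 in silique and 83.6 in inflorescence, and the 8 of carriers and chaperones 71.8, 102 and 84.4. The 5 placed genes of mitochondrial genome maintenance had a median of 14.2 FPKM in leaf, 9.19 in silique and 11.7 in inflorescence, and the 3 of intron splicing 11.9, 18.8 and 18.5. Only 1 gene passed the rule, in silique over both other organs, where the background was 12.2% over leaf and 7.26% over inflorescence. This was SDH2-3, which encodes an iron-sulphur subunit of complex II made in seeds, at 0.170 FPKM in leaf, 18.7 in silique and 0.105 in inflorescence. The median log2 ratio of genome maintenance genes was 0.35 for leaf over silique and -0.01 for leaf over inflorescence, and that of the 2 placed genes of RNA processing 0.82 and 0.61. Of this pair, PRORP1, the organellar RNase P protein that trims transfer RNA precursors, was at 40.7 FPKM in leaf, 27.6 in silique and 32.9 in inflorescence, and RNR1, a ribonuclease gene, at 22.6, 10.1 and 11.5. Of the 5 alternative oxidase genes, whose product bypasses part of the respiratory chain, AOX1A was highest in leaf, at 33.2 FPKM, against 17.5 in silique and 8.44 in inflorescence. The other 4 were not highest in leaf, and the list's median was 0.454 FPKM in leaf, 1.95 in silique and 1.93 in inflorescence.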

How the data were processed

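Total RNA was column-purified and DNase-treated, per the labels' protocols. The authors deposited 1 FPKM value per identifier and library, per the file headers. TopHat and TAIR10 are named in the submitters' processing notes. The sources used here do not give versions, the quantification tool, the annotation or the FPKM denominator. Depth per library is unknown, so no interval or detection limit in counts is given.

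Python 3.11.15, pandas 2.3.3, numpy 2.4.6 and scipy 1.17.1 were used. Width was the end minus the deposited start, and 1 was added to starts for printing. Of the reference's 66 mitochondrial genes, 40 had a length of their own; 16 positions had such a width. Matches used spacings under 20 kb. Nuclear genes were placed where a locus and exactly 1 gene overlapped by at least 50% of each, and entries whose code has another symbol in the reference were left out. Loci named in the text were set by rule: the 5 highest per organ, the 3 largest ratios per pair and direction from 5 FPKM, the 3 widest and narrowest, the 3 steadiest from 5 FPKM, loci listed at 0 in 1 organ with 5 FPKM in another, and named genes. Chosen after seeing values were XLOC_033806, XLOC_033758, XLOC_033832, ATP3, PRORP1, RNR1, AOX1A, the rest of the loci that reached 5 FPKM, and intervals with several identifiers. The members and lists were chosen with earlier results of these data known. The counting and matching code was run on simulated data with planted answers. This checked the code only, and did not cover low FPKM or false matches of narrow loci.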

Additional observations from a re-analysis of the deposited data

How the results depend on the processing

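No paired analysis was possible because each organ has 1 library. Among alternatives for counts, shares, medians and rank correlations, 84 stayed within 1.5 times the value given (0.1 for medians and correlations) and 33 moved. The medians are held at or near 0 by the identifiers at 0 in both organs, so their stability says nothing. Leaving out loci under 200 bp could not change a count either, as all 18 were listed at 0. On the log2(FPKM + 1) scale no 4-fold difference can arise under 1 FPKM, so a minimum of 1 FPKM and no minimum were the same rule. The 84 thus include alternatives that could not move. Of the ratios of single named loci, 178 kept their side of 4-fold, 6 passed it and 5 lost it, and 1, not called, changed sign: XLOC_033856, leaf over inflorescence, was 0.05 and, scaled between libraries, -0.12. The 4-fold counts rest on few loci. The changed rules were not counted over all loci, so the shifts in these counts have no background. Higher in leaf than silique, 2 became 6 at a pseudocount of 0.1, 1 at a pseudocount of 5, 8 at 2-fold, 1 at 8-fold and 1 for loci alone at their position; higher in silique than leaf, 0 became 1 at a pseudocount of 0.1 and 2 at 2-fold. Higher in leaf than inflorescence, 3 became 7, 1 and 9 at pseudocounts of 0.1 and 5 and at 2-fold, and 1 for loci alone. Higher in silique than inflorescence, 2 became 1 at a pseudocount of 5, at 8-fold and for loci alone. Detected loci numbered 13 in leaf, 8 in silique and 6 in inflorescence at 5 FPKM, and 24, 7 and 7 for loci alone. The share of the library's summed FPKM, 0.0709% in leaf, 0.0926% in silique and 0.0881% in inflorescence, was 0.114% in leaf without the 100 highest loci, and 0.0216%, 0.0264% and 0.00619% without the 2 highest mitochondrial loci, an alternative chosen after seeing the data. So were those on direction. The 2-fold alternative here took plain FPKM ratios with no minimum, and counted any value above a listed 0. By it, silique was above leaf at 5, inflorescence above leaf at 2, silique above inflorescence at 29 and inflorescence above silique at 11. For loci alone, inflorescence was above leaf at 3 and above silique at 12. Leaf stayed above silique at 45 to 62 and above inflorescence at 48 to 66. The rank correlations above 0 FPKM were 0.17, 0.015 and 0.13. Why these moved was not tested. Some alternatives, such as loci alone or above 0 FPKM, also left fewer loci. Unknown depth limits all values under 1 FPKM.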
